A study of Mus musculus with 12 samples.

Results

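The semaphorin, plexin, neuropilin, ephrin, Eph, Slit, Robo, netrin and Unc5 genes were examined in mouse mesenchymal stem cells (MSCs) with and without the kinase p38α, at rest and after TGF-β. They were taken by name: every gene of the array with a single annotated symbol that begins with Sema, Plxn, Efna, Efnb, Epha or Ephb, together with Nrp1, Nrp2, the Slit and Robo genes, Ntn1, Ntn4 and the Unc5 receptors. This gave 63 genes of 17097 measured, and Efna3, Ephb2 and Slit3 were not analysed here. Expression was read on 12 Affymetrix MG-430 PM arrays. The cells came from the bone marrow of mice (FVB/NJ by the labels, whereas the study's methods give its mice a C57BL/6J background) that carry floxed p38α (Mapk14) and a tamoxifen-activated Cre under the ubiquitin promoter, and the study's methods describe them as immortalized in culture by serial passage. The groups were WT MSCs (labelled CTRO, 4 arrays), the same cells with TGF-β (3 arrays), p38α∆ MSCs (labelled KO, 2 arrays) and p38α∆ MSCs with TGF-β (3 arrays). Both genotypes therefore carry the floxed gene and the Cre, the p38α∆ MSCs were made by giving the drug that activates the Cre, and the WT MSCs received vehicle. All cells were kept in 0.5% serum, and the treated groups received TGF-β at 5 ng/ml for 20 h. Arrays bear the numbers 1, 3, 4 and 4b in WT MSCs, 1, 3 and 4 in WT MSCs with TGF-β, 1 and 3 in p38α∆ MSCs, and 1, 2 and 4 in p38α∆ MSCs with TGF-β, and values below are listed in that order. Nothing in the sources used here says that these arrays are separate cultures, so p-values measure only the spread between arrays, which may be technical, and precision is limited by how few arrays there are.

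Axon guidance cues were found in the nervous system, where they repel or attract growing axons, and the same ligands and receptors steer endothelial, stromal and immune cells. Class 3 semaphorins are secreted and bind neuropilins, which signal through plexins, while most other semaphorins sit in the membrane and bind plexins directly. Ephrin-A ligands are tethered to the membrane by a lipid anchor and ephrin-B ligands span it, so that they signal to Eph receptor tyrosine kinases on touching cells and can signal back into their own cell. Slits act through Robo receptors, and netrins through Dcc and the Unc5 receptors. Several members, among them neuropilin 1, ephrin B2, EphB4, Unc5b and Robo4, are known for their part in blood vessel formation.

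The values were log2 signals normalized by RMA, with 1 probeset per gene, the one with the highest mean over the 12 arrays. Of the 63 genes, 28 had a signal below the median of all genes (5.11 on a scale from 2.28 to 13.06), and 17 stayed below 4.5 on every array, so differences in those say little. Signals of different probesets do not rank the genes by mRNA level. The arrays numbered 1, which occur in all 4 groups, stood apart from the rest along the first principal component of all genes (47.5% of the variance), and TGF-β treatment followed the second (27.8%). Within groups, 43 of the 63 guidance genes were higher on the arrays numbered 1 (median 0.14 on the log2 scale), as were 10732 of all 17097 genes (median 0.09). The 63 ran from −0.84 for Robo1 to 0.56 for Epha1. What the number stands for is not given in the sources used here, and its part in the results was not tested beyond the settings named. The TGF-β target genes Smad7, Skil and Tgfbi rose in both genotypes (log2 difference 1.22, 2.53 and 1.36 in WT MSCs and 1.67, 2.56 and 1.49 in p38α∆ MSCs), while Id1 did not pass (0.09 and 0.07). Mapk14 itself did not differ between the genotypes at the threshold (0.19 with TGF-β, adjusted p = 0.508, and 0.00 without). The sources do not say whether its probes lie in the deleted part, so this checks nothing and the groups are named as labelled. Of 7 measured MSC markers, 4 were above the median of all genes and Eng, Mcam and Thy1 were below it. All 8 endothelial markers were below it, with array means of 3.42 to 3.72, and none passed in any comparison (0 at an unadjusted p under 0.05 in limma). The measured glial (3), leukocyte (4) and epithelial (4) markers were also below it, as were 5 of 7 neuronal markers. Of the neuronal markers Tubb3, a tubulin, rose with TGF-β in p38α∆ MSCs (1.56, adjusted p = 0.00297), and the others did not pass. The array means of the MSC markers ran from 6.86 to 7.0 in untreated and from 7.11 to 7.36 in treated MSCs. With TGF-β Nt5e (0.49) and Cd44 (0.70) rose in WT MSCs, and Mcam (1.04) and Cd44 (0.68) in p38α∆ MSCs. Mcam was also higher in p38α∆ than in WT MSCs with TGF-β (1.14, adjusted p = 0.00273). The part of these markers in the results was not tested.

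TGF-β changed 13 of the 63 guidance genes in WT MSCs. Of these, 5 rose (Sema4f, Sema7a, Unc5b, Efna1 and Nrp1) and 8 fell (Sema3a, Efnb1, Efna4, Ephb4, Sema3c, Nrp2, Sema5a and Ephb3), which is 20.6% of the genes, against 9.38% of all genes measured (4.02% higher and 5.36% lower). In p38α∆ MSCs 15 changed, or 23.8%, against 8.4% of all genes (3.43% higher and 4.97% lower). There 7 rose (Sema4f, Sema7a, Efna2, Nrp1, Unc5b, Efna1 and Plxna1) and 8 fell (Sema3a, Efna5, Efnb2, Efna4, Sema5a, Efnb1, Nrp2 and Ephb4). The threshold was an adjusted p under 0.05 over all genes in limma. In such bulk RNA, fewer cells of a type and less RNA per cell cannot be told apart. The lists shared 11 genes, all with the same direction, which is 84.6% of the WT list and 73.3% of the p38α∆ list. Over all genes the lists shared 946, also with the same direction, or 59% and 65.9%. The comparisons use separate arrays, but both come from the fit to all 12 arrays and share its estimate of the spread. The lists are therefore not independent. Over all 63 genes the median log2 difference was 0.02 in WT MSCs (32 above 0 and 31 below) and 0.04 in p38α∆ MSCs (34 and 29), against −0.01 and 0.00 over all genes. Array ranges with and without TGF-β did not overlap for 13 genes in WT MSCs (20.6%, against 13.4% of all genes), 7 of them higher (5.37%) and 6 lower (7.99%), and for 22 in p38α∆ MSCs (34.9%, against 21.9%), 10 of them higher (9.67% of all genes) and 12 lower (12.2%).

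**Figure D1:**
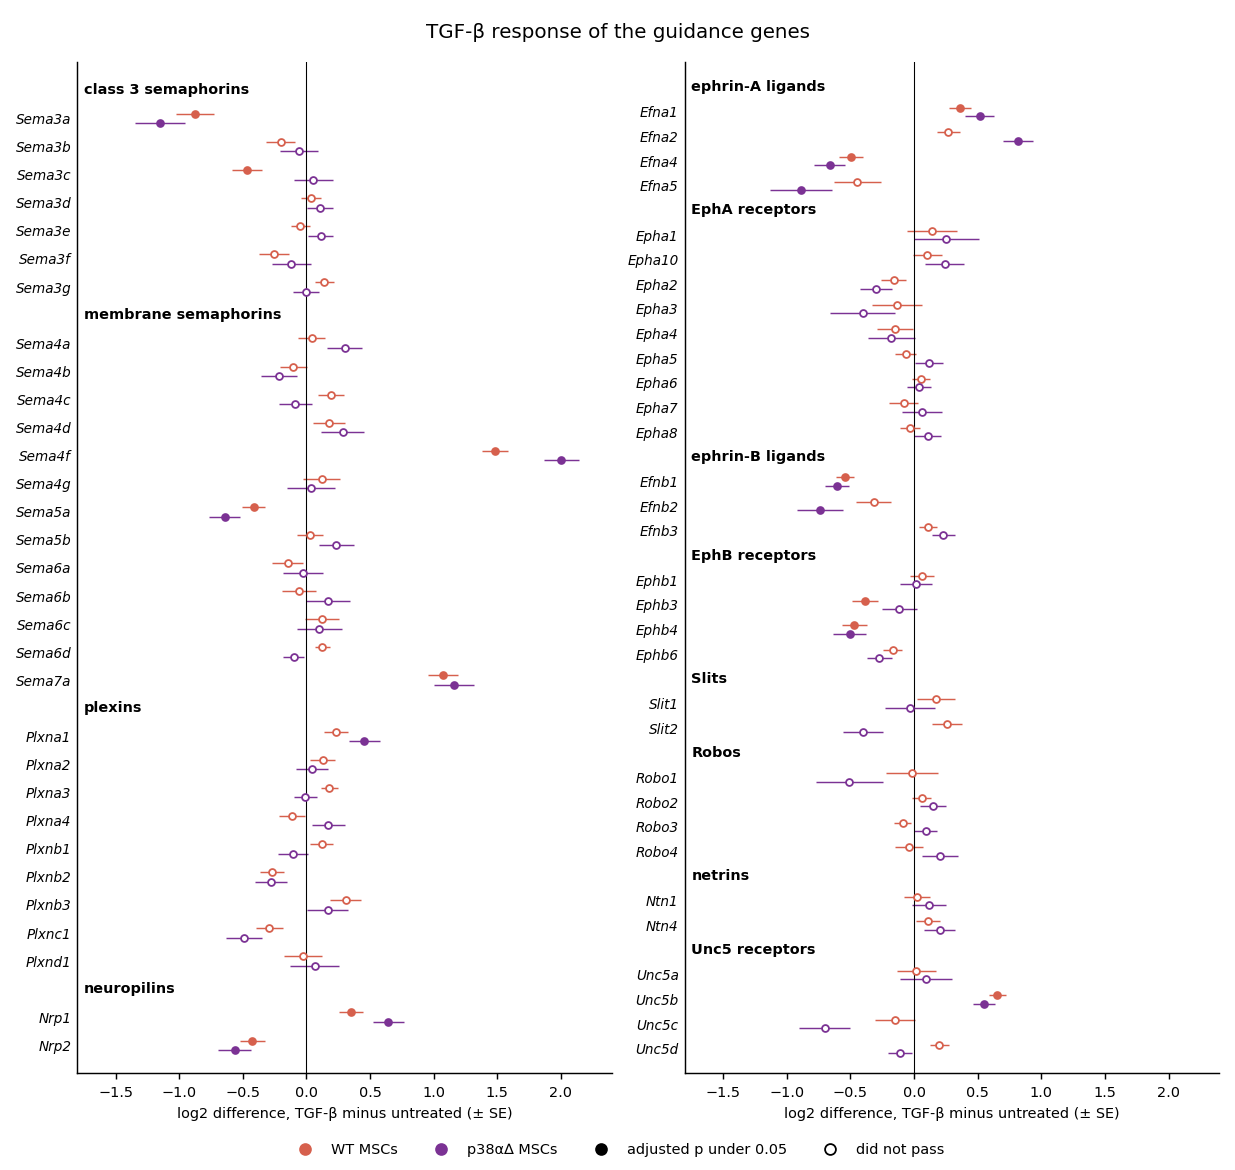
Log2 difference with TGF-β for each of the 63 guidance genes (a row for each gene, grouped by class), in WT and in p38α∆ MSCs. Points are limma estimates, bars are SE, and filled points passed at an adjusted p under 0.05. Sema4f lies farthest to the right (1.48 in WT and 2.00 in p38α∆ MSCs) and Sema3a farthest to the left (−0.88 and −1.15).

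The counts depended on the array number, which entered the fit as a random block (estimated correlation 0.49). Without this replicate block 5 genes passed in WT MSCs (Efna4, Efnb1, Sema4f, Sema7a and Unc5b) and 9 in p38α∆ MSCs (Efna2, Efna4, Efnb1, Nrp2, Sema3a, Sema4f, Sema5a, Sema7a and Unc5b). Over all genes the counts without the block fell too, from 1604 to 602 in WT MSCs and from 1436 to 624 in p38α∆ MSCs. Leaving out WT array 3 or array 3 or 4 of TGF-β-treated WT MSCs left 7 each in WT MSCs, and leaving out either p38α∆ array left 9. Over all genes, leaving out these arrays left 1042, 1035 and 1019 in WT MSCs. Leaving out p38α∆ array 1 or 3 left 698 and 763 of all genes in p38α∆ MSCs.

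Promoters are shown for the genes with the largest rise and fall (Sema4f and Sema3a), for the other semaphorin that rose (Sema7a), for the neuropilin that rose (Nrp1), and for the gene that differed between the genotypes (Sema3c). Each is the RefSeq window from 250 bases before to 50 after the annotated start, on build GRCm38.p6, written 5′ to 3′ on the gene's own strand. Capitals mark the Smad box CAGACA, which Smad proteins can bind, and the GC box GGGCGG, which Sp factors can bind, on either strand.
Sema4f, chr6:82939720-82940019, minus strand: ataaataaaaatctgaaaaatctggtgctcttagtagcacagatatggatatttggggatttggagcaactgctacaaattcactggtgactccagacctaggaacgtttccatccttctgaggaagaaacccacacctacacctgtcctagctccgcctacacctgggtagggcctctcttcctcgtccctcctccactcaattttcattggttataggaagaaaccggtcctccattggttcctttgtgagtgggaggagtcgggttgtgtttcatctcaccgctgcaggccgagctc
Sema7a, chr9:57939862-57940161, plus strand: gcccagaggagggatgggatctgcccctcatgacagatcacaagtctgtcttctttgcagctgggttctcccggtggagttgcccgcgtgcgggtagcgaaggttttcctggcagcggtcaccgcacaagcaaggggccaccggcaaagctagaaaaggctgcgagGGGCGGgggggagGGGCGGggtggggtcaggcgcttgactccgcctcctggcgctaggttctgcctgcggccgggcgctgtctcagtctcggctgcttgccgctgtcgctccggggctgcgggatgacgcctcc
Nrp1, chr8:128358823-128359122, plus strand: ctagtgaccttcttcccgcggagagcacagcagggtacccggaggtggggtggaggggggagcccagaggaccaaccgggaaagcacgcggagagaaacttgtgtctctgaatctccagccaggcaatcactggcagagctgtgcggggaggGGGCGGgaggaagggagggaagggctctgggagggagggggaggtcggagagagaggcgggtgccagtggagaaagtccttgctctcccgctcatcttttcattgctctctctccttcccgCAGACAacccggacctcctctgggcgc
Sema3a, chr5:13396534-13396833, plus strand: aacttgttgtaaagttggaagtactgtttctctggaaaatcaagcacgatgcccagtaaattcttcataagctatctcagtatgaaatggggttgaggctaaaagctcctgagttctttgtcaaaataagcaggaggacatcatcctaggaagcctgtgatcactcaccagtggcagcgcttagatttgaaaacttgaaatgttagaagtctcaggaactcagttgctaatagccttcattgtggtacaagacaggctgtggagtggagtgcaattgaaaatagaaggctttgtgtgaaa
Sema3c, chr5:17574566-17574865, plus strand: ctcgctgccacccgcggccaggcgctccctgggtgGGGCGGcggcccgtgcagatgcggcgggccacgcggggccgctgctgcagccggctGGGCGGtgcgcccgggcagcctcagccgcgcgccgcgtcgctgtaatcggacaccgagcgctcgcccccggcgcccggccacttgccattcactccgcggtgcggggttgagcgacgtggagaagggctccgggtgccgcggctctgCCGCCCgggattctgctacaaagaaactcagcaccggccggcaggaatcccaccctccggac
RefSeq windows were found for 54 of the 63 genes, 69 windows in all, and for 16 of the 17 genes that passed with TGF-β in either genotype (17 windows). The Smad box occurred in 17 of the 69 windows (24.6%, against 21% of all 32851 promoter windows), but in 1 of the 17 windows of the genes that passed, that of Nrp1. The Smad palindrome GTCTAGAC was in none of the 69 (0.213% of all windows), and the AP-1 motif TGANTCA was in 3 (4.35%, against 7.81%) and in none of the 17. GC boxes, a motif added after the data were seen, were in 49 of the 69 (71%, against 35.7%) and in 13 of the 17 (76.5%). Both strands were searched, and these motifs do not overlap one another in the printed windows. The windows of guidance genes were richer in G and C than all windows (median 64% against 52.7%). Sema4f (48.7%) and Sema3a (41.3%), the genes that moved most, had G and C contents below those of Sema7a (67.3%), Nrp1 (64%) and Sema3c (75.7%). A match describes these letters only, and no binding was measured.

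Sema4f, a membrane semaphorin of class 4, rose most of all 63 genes in both genotypes. Its log2 signals were 4.80, 4.87, 4.43 and 4.70 in WT MSCs, 6.08, 6.35 and 6.16 in WT MSCs with TGF-β, 4.49 and 4.54 in p38α∆ MSCs, and 6.30, 6.76 and 6.45 in p38α∆ MSCs with TGF-β. Every treated array lay more than 1 log2 unit above every untreated array of its genotype. The log2 difference was 1.48 in WT MSCs (SE 0.10, 2.79-fold, adjusted p = 3.86e-06) and 2.00 in p38α∆ MSCs (SE 0.13, 4.01-fold, adjusted p = 3.67e-06). Within array numbers it was 1.28, 1.48 and 1.59 in WT MSCs and 1.81 in p38α∆ MSCs. Sema7a, a lipid-anchored semaphorin that signals through β1 integrins and plexin C1, gave 5.91, 5.57, 5.58 and 5.47 in WT MSCs, 6.84, 6.44 and 6.86 in WT MSCs with TGF-β, 5.84 and 5.51 in p38α∆ MSCs, and 6.87, 7.24 and 6.68 in p38α∆ MSCs with TGF-β. Treated and untreated arrays again did not overlap, and the rise was 2.1-fold in WT MSCs (1.07, SE 0.12, adjusted p = 0.000144) and 2.23-fold in p38α∆ MSCs (1.16, SE 0.16, adjusted p = 0.000711). Both semaphorins passed in both genotypes under each setting run.

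Sema3a, a secreted class 3 semaphorin that repels axons and endothelial cells through neuropilin 1, fell most. It gave 7.52, 8.46, 8.20 and 8.27 in WT MSCs, 7.09, 7.53 and 7.07 in WT MSCs with TGF-β, 7.76 and 8.65 in p38α∆ MSCs, and 6.81, 7.03 and 7.05 in p38α∆ MSCs with TGF-β. In WT MSCs array 1, at 7.52, was the lowest untreated value and just under treated array 3 (7.53), so the groups overlapped, while in p38α∆ MSCs every treated array was below both untreated ones. The log2 difference was −0.88 (SE 0.15, 1.84-fold lower, adjusted p = 0.00281) in WT MSCs and −1.15 (SE 0.20, 2.22-fold lower, adjusted p = 0.00315) in p38α∆ MSCs. Without the replicate block the WT call was lost (adjusted p = 0.0926). Sema5a, a membrane semaphorin with thrombospondin repeats, was at 7.86, 7.99, 7.96 and 8.03 in WT MSCs, 7.57, 7.46 and 7.55 in WT MSCs with TGF-β, 7.77 and 7.89 in p38α∆ MSCs, and 6.95, 7.27 and 7.49 in p38α∆ MSCs with TGF-β. Its treated arrays lay below all untreated arrays in both genotypes. The fall was −0.42 (SE 0.09, adjusted p = 0.0134) in WT MSCs and −0.64 (SE 0.12, adjusted p = 0.00589) in p38α∆ MSCs, and the WT call was lost without WT array 3 (adjusted p = 0.0603) or without array 3 (0.0762) or 4 (0.0885) of TGF-β-treated WT MSCs, and the p38α∆ call without p38α∆ array 1 (0.0547).

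Sema3c, a secreted semaphorin that binds both neuropilins and acts in heart outflow tract development, fell with TGF-β in WT MSCs. The signals were 8.85, 9.02, 8.58 and 9.15 in WT MSCs, 8.42, 8.62 and 8.29 in WT MSCs with TGF-β, 9.14 and 9.15 in p38α∆ MSCs, and 9.04, 9.24 and 9.21 in p38α∆ MSCs with TGF-β. WT array 4, at 8.58, was below treated array 3 (8.62), so the WT groups overlapped. The difference was −0.47 in WT MSCs (SE 0.12, adjusted p = 0.0255) and 0.05 in p38α∆ MSCs (SE 0.15, adjusted p = 0.904). The WT call was lost without WT array 1 (adjusted p = 0.0545) or 3 (0.0877) and without array 1 (0.083) or 4 (0.159) of TGF-β-treated WT MSCs. Of the 7 class 3 semaphorins, 2 fell in WT MSCs (Sema3a and Sema3c) and 1 in p38α∆ MSCs (Sema3a), and none rose. Of all genes, 5.36% fell in WT MSCs and 4.97% in p38α∆ MSCs. Sema3f, a ligand of neuropilin 2, gave 5.88, 5.19, 5.28 and 5.32 in WT MSCs, 5.47, 4.79 and 5.25 in WT MSCs with TGF-β, 5.81 and 5.36 in p38α∆ MSCs, and 5.72, 5.36 and 5.41 in p38α∆ MSCs with TGF-β, and differed by −0.26 (SE 0.12, adjusted p = 0.236) and −0.12 (SE 0.15) with TGF-β. Sema3e, which binds plexin D1 without a neuropilin, lay between 3.13 and 3.56 on all arrays, near the bottom of the scale. Of the 13 membrane semaphorins, 2 rose and 1 fell in each genotype, and the 10 others were between −0.15 and 0.19 in WT MSCs and between −0.22 and 0.30 in p38α∆ MSCs. Of all genes, 4.02% rose and 5.36% fell in WT MSCs, and 3.43% rose and 4.97% fell in p38α∆ MSCs.

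The neuropilins, the co-receptors of class 3 semaphorins and of VEGF family members, moved apart. Nrp1 rose with TGF-β, with signals of 7.61, 8.04, 7.87 and 7.95 in WT MSCs, 8.15, 8.26 and 8.21 in WT MSCs with TGF-β, 7.38 and 7.87 in p38α∆ MSCs, and 8.04, 8.41 and 8.38 in p38α∆ MSCs with TGF-β. Treated arrays were above all untreated arrays in both genotypes, although array 1 was the lowest in every group. The difference was 0.35 in WT MSCs (SE 0.09, 1.27-fold, adjusted p = 0.0335) and 0.64 in p38α∆ MSCs (SE 0.12, 1.56-fold, adjusted p = 0.00573). The WT call was lost on leaving out any 1 of the 7 arrays compared (adjusted p = 0.0533 to 0.175), and the p38α∆ call without p38α∆ array 1 (0.123). Nrp2, with signals of 10.10, 10.24, 10.20 and 10.56 in WT MSCs, 9.93, 9.81 and 9.79 in WT MSCs with TGF-β, 10.59 and 10.57 in p38α∆ MSCs, and 10.12, 9.94 and 10.01 in p38α∆ MSCs with TGF-β, fell, and treated arrays lay below all untreated ones. It differed by −0.43 in WT MSCs (SE 0.10, 1.34-fold lower, adjusted p = 0.0172) and by −0.56 in p38α∆ MSCs (SE 0.13, 1.48-fold lower, adjusted p = 0.0177). Its other probeset gave −0.06 and −0.27 and did not pass. Calls for Nrp2 were lost in WT MSCs without WT array 3 (adjusted p = 0.0577) or array 3 (0.0698) or 4 (0.116) of the treated group, and in p38α∆ MSCs without array 1 (0.127) or 3 (0.0944) or treated array 4 (0.0585). The p38α∆ call was also lost with the replicate block as a fixed term (0.0618) and with the arrays numbered 1 left out (0.053).

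With TGF-β, 9.38% of all genes passed in limma in WT MSCs (21% at an unadjusted p under 0.05) and 8.4% in p38α∆ MSCs. Among the 9 plexins, the signalling receptors for semaphorins, none passed in WT MSCs in limma (5 at an unadjusted p under 0.05) and 1 in p38α∆ MSCs (11.1%). This was Plxna1, a partner of neuropilin 1, which gave 9.08, 8.78, 8.76 and 8.60 in WT MSCs, 9.20, 8.88 and 9.05 in WT MSCs with TGF-β, 8.95 and 8.55 in p38α∆ MSCs, and 9.21, 9.25 and 9.23 in p38α∆ MSCs with TGF-β. The WT groups overlapped and the p38α∆ groups did not. The difference was 0.23 (SE 0.10, adjusted p = 0.179) in WT MSCs and 0.46 (SE 0.12, adjusted p = 0.0422) in p38α∆ MSCs. The latter call was lost without array 1 (adjusted p = 0.0594) or 4 (0.0524) of TGF-β-treated WT MSCs, WT array 3 (0.0768) or 4 (0.0654), p38α∆ array 1 (0.0869) or 3 (0.257), or treated p38α∆ array 2 (0.0851) or 4 (0.122), and with the replicate block as a fixed term (0.0932). Plxnd1, the receptor for Sema3e, was at 6.54, 6.15, 6.11 and 5.73 in WT MSCs, 6.19, 6.03 and 6.13 in WT MSCs with TGF-β, 6.14 and 5.88 in p38α∆ MSCs, and 5.89, 6.04 and 6.26 in p38α∆ MSCs with TGF-β, with overlapping groups and differences of −0.03 (SE 0.15) and 0.06 (SE 0.19). Plxnc1, the plexin that binds Sema7a, differed by −0.29 (adjusted p = 0.131) and −0.49 (adjusted p = 0.0537). It was named after its values were seen, and it passed in both genotypes with the arrays numbered 1 left out (−0.39 and −0.82, adjusted p = 0.0438 and 0.00903). It also passed without array 1 of TGF-β-treated WT MSCs (adjusted p = 0.0459 in WT and 0.0312 in p38α∆ MSCs), and in p38α∆ MSCs without array 4 of that group (0.0342) or p38α∆ array 1 (0.0428).

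**Figure D2:**
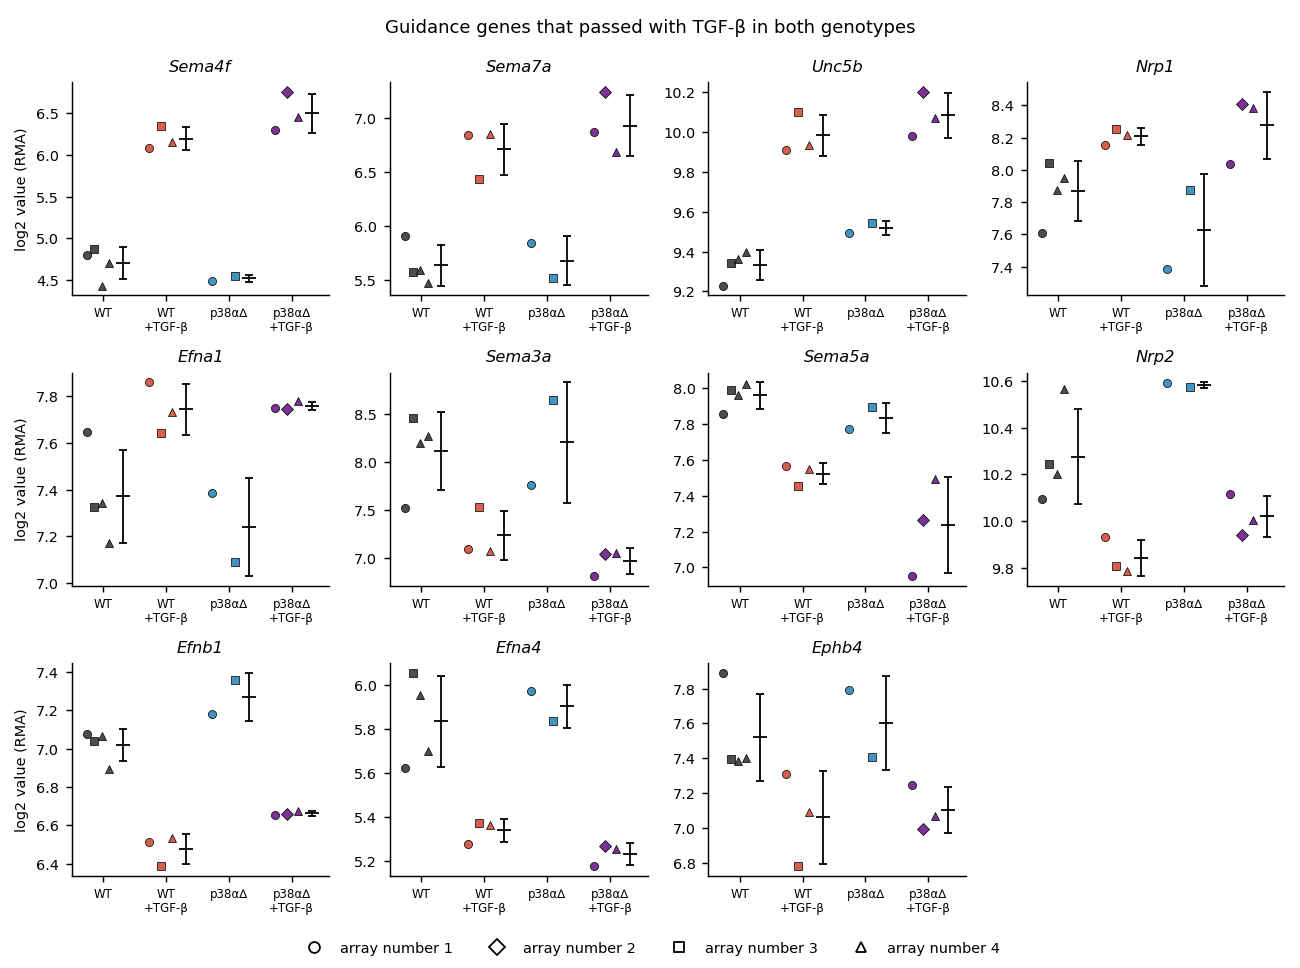
Log2 signal (vertical axis, RMA scale, a different range in each panel) of the 11 guidance genes that passed with TGF-β in both genotypes. Each point is an array, its color the group and its shape the array number (4b is drawn as 4), and bars give the mean ± SD of the group. Sema4f rises from 4.43 to 4.87 in WT MSCs to 6.08 to 6.35 with TGF-β, and Sema3a falls in both genotypes with array 1 the lowest untreated point.

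Of the 4 ephrin-A ligands, all changed with TGF-β in p38α∆ MSCs, 2 up and 2 down, and 2 changed in WT MSCs. Of all genes, 8.4% changed in p38α∆ MSCs and 9.38% in WT MSCs. These counts rest on 1 probeset per gene. Efna1, a ligand of EphA2 that is induced by inflammatory cytokines in endothelial cells, gave 7.64, 7.33, 7.34 and 7.17 in WT MSCs, 7.86, 7.64 and 7.73 in WT MSCs with TGF-β, 7.39 and 7.09 in p38α∆ MSCs, and 7.75, 7.75 and 7.78 in p38α∆ MSCs with TGF-β. WT array 1, at 7.64, met the lowest treated array, while in p38α∆ MSCs the groups did not overlap. The rise was 0.36 (SE 0.09, adjusted p = 0.0205) and 0.52 (SE 0.11, adjusted p = 0.0148). The call was lost in WT MSCs without WT array 3 (adjusted p = 0.0591) or array 1 (0.0775), 3 (0.0593) or 4 (0.104) of the treated group, and in p38α∆ MSCs without array 1 (0.061) or 3 (0.118) or treated array 4 (0.0505). The other Efna1 probeset gave 0.11 in WT and 0.20 in p38α∆ MSCs and passed in neither.

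Efna2 had signals of 6.42, 6.16, 6.01 and 5.93 in WT MSCs, 6.58, 6.24 and 6.46 in WT MSCs with TGF-β, 6.07 and 5.83 in p38α∆ MSCs, and 6.93, 6.71 and 6.57 in p38α∆ MSCs with TGF-β. All 3 treated p38α∆ arrays lay above both untreated ones, and the WT groups overlapped. It rose 1.76-fold in p38α∆ MSCs (0.82, SE 0.12, adjusted p = 0.00128) and differed by 0.27 in WT MSCs (SE 0.09, adjusted p = 0.0965). The other Efna2 probeset gave 0.46 in p38α∆ and 0.37 in WT MSCs. It did not pass in limma over all probesets (adjusted p = 0.133 and 0.103). Efna4, with 5.62, 6.06, 5.96 and 5.70 in WT MSCs, 5.28, 5.37 and 5.36 in WT MSCs with TGF-β, 5.97 and 5.84 in p38α∆ MSCs, and 5.18, 5.27 and 5.26 in p38α∆ MSCs with TGF-β, fell in both genotypes without overlap, by −0.49 (SE 0.09, adjusted p = 0.00582) and −0.66 (SE 0.12, adjusted p = 0.00559), the latter call being lost without p38α∆ array 1 (adjusted p = 0.118). Efna5, which guides retinal axons by repulsion, gave 6.28, 6.56, 6.54 and 6.88 in WT MSCs, 6.44, 6.17 and 5.76 in WT MSCs with TGF-β, 6.67 and 7.41 in p38α∆ MSCs, and 6.04, 6.05 and 6.20 in p38α∆ MSCs with TGF-β. It fell 1.85-fold in p38α∆ MSCs (−0.89, SE 0.24, adjusted p = 0.041). The highest untreated array was p38α∆ array 3, at 7.41, and without it the difference was −0.57 (adjusted p = 0.305). That call was also lost without WT array 3 or 4, array 3 of TGF-β-treated WT MSCs, or any of the 3 treated p38α∆ arrays (adjusted p = 0.0615 to 0.142), and with the replicate block as a fixed term (0.107). In WT MSCs it differed by −0.45 (SE 0.18, adjusted p = 0.185), and passed without array 1 of the treated group (−0.69, adjusted p = 0.0337). Its other probeset fell by −0.41 in WT MSCs (SE 0.10) and passed in a fit over all probesets (adjusted p = 0.0326).

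The ephrin-B ligands fell where they passed. Efnb1, which sets tissue boundaries in the developing skull, was at 7.08, 7.04, 7.06 and 6.89 in WT MSCs, 6.51, 6.39 and 6.53 in WT MSCs with TGF-β, 7.18 and 7.36 in p38α∆ MSCs, and 6.65, 6.66 and 6.68 in p38α∆ MSCs with TGF-β. Each treated array lay below every untreated array of its genotype. The fall was 1.46-fold in WT MSCs (−0.54, SE 0.07, adjusted p = 0.000524) and 1.52-fold in p38α∆ MSCs (−0.60, SE 0.10, adjusted p = 0.00203), and it passed under each setting run. Efnb2, the ligand that marks arteries and signals to EphB4 on veins, gave 8.69, 9.22, 9.41 and 9.09 in WT MSCs, 8.61, 8.74 and 8.94 in WT MSCs with TGF-β, 8.57 and 9.27 in p38α∆ MSCs, and 8.11, 8.47 and 8.13 in p38α∆ MSCs with TGF-β. The treated p38α∆ arrays were below both untreated ones, and the WT groups overlapped through WT array 1. The difference was −0.74 in p38α∆ MSCs (SE 0.18, 1.67-fold lower, adjusted p = 0.0261) and −0.32 in WT MSCs (SE 0.14, adjusted p = 0.213). The p38α∆ call was lost without p38α∆ array 3 (adjusted p = 0.224) or treated array 1 (0.0511) or 4 (0.0733). Efnb3 stayed below 4.5 on every array.

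The 9 EphA receptors did not pass in limma in either genotype (0 at an unadjusted p under 0.05 in WT and 1 in p38α∆ MSCs), with differences from −0.16 to 0.14 in WT MSCs and from −0.40 to 0.25 in p38α∆ MSCs. Of all genes, 21% in WT and 20% in p38α∆ MSCs had an unadjusted p under 0.05. Epha2, the main receptor for ephrin A1 outside the nervous system, gave 6.16, 6.0, 6.10 and 6.16 in WT MSCs, 5.94, 5.68 and 6.18 in WT MSCs with TGF-β, 6.54 and 6.19 in p38α∆ MSCs, and 6.22, 6.27 and 6.02 in p38α∆ MSCs with TGF-β, and differed by −0.16 (SE 0.10) and −0.30 (SE 0.13, adjusted p = 0.208) with TGF-β. Of the 4 EphB receptors, 2 fell in WT MSCs and 1 in p38α∆ MSCs, where 5.36% and 4.97% of all genes fell. Ephb4, the venous receptor for ephrin B2, was at 7.89, 7.40, 7.39 and 7.40 in WT MSCs, 7.31, 6.78 and 7.09 in WT MSCs with TGF-β, 7.79 and 7.41 in p38α∆ MSCs, and 7.25, 6.99 and 7.07 in p38α∆ MSCs with TGF-β. WT array 1 was the highest, with the 3 other WT arrays at 7.39 to 7.40, and all treated arrays were below all untreated ones in both genotypes. The fall was −0.47 (SE 0.10, adjusted p = 0.01) in WT MSCs and −0.51 (SE 0.13, adjusted p = 0.0311) in p38α∆ MSCs. Its WT call was lost without array 3 of TGF-β-treated WT MSCs (adjusted p = 0.0708), and its p38α∆ call without p38α∆ array 1 (0.223) or 3 (0.115) or treated array 1 (0.111) or 2 (0.065).

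Ephb3, a receptor for ephrin B ligands that positions cells in the intestinal crypt, gave 7.39, 7.32, 7.14 and 7.27 in WT MSCs, 7.0, 6.79 and 6.93 in WT MSCs with TGF-β, 7.64 and 7.0 in p38α∆ MSCs, and 7.38, 7.19 and 7.07 in p38α∆ MSCs with TGF-β. It fell in WT MSCs without overlap (−0.39, SE 0.10, adjusted p = 0.0356) and differed by −0.12 (SE 0.14) in p38α∆ MSCs, where the groups overlapped. The WT call was lost without WT array 1, 3 or 4b, any treated WT array, or treated p38α∆ array 2 (adjusted p = 0.0521 to 0.153).

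No Slit, Robo or netrin gene passed with TGF-β in limma, and only Slit2, in p38α∆ MSCs, had an unadjusted p under 0.05. Slit2, the secreted ligand of Robo1 and Robo2, was at 5.74, 6.26, 6.38 and 6.23 in WT MSCs, 6.33, 6.47 and 6.36 in WT MSCs with TGF-β, 6.27 and 6.58 in p38α∆ MSCs, and 5.74, 6.43 and 6.15 in p38α∆ MSCs with TGF-β. All 4 groups overlapped, and the differences were 0.26 in WT MSCs (SE 0.12, adjusted p = 0.249) and −0.40 in p38α∆ MSCs (SE 0.16, adjusted p = 0.165). Robo1 gave 5.26, 6.15, 6.28 and 6.11 in WT MSCs, 5.66, 6.26 and 5.80 in WT MSCs with TGF-β, 5.26 and 6.60 in p38α∆ MSCs, and 4.95, 5.85 and 5.52 in p38α∆ MSCs with TGF-β. Array 1 was the lowest in every group, and the differences were −0.02 (SE 0.20) and −0.51 (SE 0.26, adjusted p = 0.326). With the arrays numbered 1 left out, Robo1 passed in p38α∆ MSCs (−0.88, adjusted p = 0.035). Robo2, at 2.71 to 3.01, and the endothelial receptor Robo4, at 3.14 to 3.70, lay near the bottom of the scale on all arrays. Ntn4, a netrin of basement membranes, lay between 3.94 and 4.45.

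Unc5b, the netrin receptor of blood vessels, rose with TGF-β and gave 9.23, 9.34, 9.36 and 9.40 in WT MSCs, 9.91, 10.10 and 9.94 in WT MSCs with TGF-β, 9.49 and 9.54 in p38α∆ MSCs, and 9.98, 10.20 and 10.07 in p38α∆ MSCs with TGF-β. The groups did not overlap in either genotype. The rise was 1.57-fold in WT MSCs (0.65, SE 0.07, adjusted p = 7.25e-05) and 1.46-fold in p38α∆ MSCs (0.55, SE 0.09, adjusted p = 0.00208), and it passed under each setting run. The 3 other Unc5 receptors did not pass. Among them Unc5c differed by −0.15 in WT MSCs and by −0.70 in p38α∆ MSCs (adjusted p = 0.0537), and passed there without array 1 (adjusted p = 0.0483) or 4 (0.028) of TGF-β-treated WT MSCs or treated p38α∆ array 4 (0.0275), and with the replicate block as a fixed term (−0.78, adjusted p = 0.0443).

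With TGF-β in both, 1 guidance gene differed between p38α∆ and WT MSCs, Sema3c, which is 1.59% of the 63, against 0.45% of all genes (0.368% higher and 0.0819% lower). Its mean log2 signal was 9.16 ± 0.11 (SD, n = 3) in the treated p38α∆ arrays and 8.44 ± 0.17 (SD, n = 3) in the treated WT arrays, and each of the 3 p38α∆ arrays (9.04 to 9.24) lay above each of the 3 WT arrays (8.29 to 8.62). The difference was 0.73 (SE 0.13, 1.66-fold, adjusted p = 0.0357), and within array numbers it was 0.62 for number 1 and 0.92 for number 4. The call was not stable: it was lost without the replicate block (adjusted p = 0.148), with it as a fixed term (0.123), with the arrays numbered 1 left out (0.21), and on leaving out any of 9 arrays (0.0586 to 0.21), namely array 3 of WT MSCs, arrays 1, 3 and 4 of TGF-β-treated WT MSCs, both p38α∆ arrays and all 3 treated p38α∆ arrays. Another Sema3c probeset gave 0.74 and did not pass. Untreated, the difference was 0.21 (SE 0.14, adjusted p = 0.982).

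The array ranges of the treated genotypes did not overlap for 14 guidance genes (22.2%, against 8.71% of all genes), 8 higher in p38α∆ MSCs (5.26% of all genes) and 6 lower (3.45%). Apart from Sema3c these missed the threshold, as did the others of the 12 genes with an unadjusted p under 0.05 (8.6% of all genes had one). Efnb2 was at 8.11, 8.47 and 8.13 in p38α∆ MSCs with TGF-β against 8.61, 8.74 and 8.94 in WT MSCs with TGF-β, a difference of −0.53 (SE 0.16, adjusted p = 0.248). Unc5c, a repulsive netrin receptor, was at 5.85, 5.95 and 5.79 in WT MSCs with TGF-β and 4.78, 5.57 and 5.70 in p38α∆ MSCs with TGF-β. It differed by −0.54 (SE 0.18, adjusted p = 0.317), and by −1.07 within number 1 and −0.10 within number 4. Sema3b, a secreted semaphorin, was at 7.21, 7.11 and 6.89 in p38α∆ MSCs with TGF-β against 6.74, 6.58 and 6.44 in WT MSCs with TGF-β (0.43, SE 0.13, adjusted p = 0.268), and passed when the fit held the treated arrays only (0.47, adjusted p = 0.0448). Sema4d, the ligand of plexin B1, gave 5.04, 5.33, 5.45 and 5.36 in WT MSCs, 5.37, 5.51 and 5.53 in WT MSCs with TGF-β, 5.71 and 5.41 in p38α∆ MSCs, and 6.07, 5.94 and 5.61 in p38α∆ MSCs with TGF-β and differed by 0.38 (SE 0.15, adjusted p = 0.447). Within number 1 that difference was 0.70 and within number 4 it was 0.07. At the other Sema4d probeset the difference over all treated arrays was 0.07 (SE 0.15) and did not pass.

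**Figure D3:**
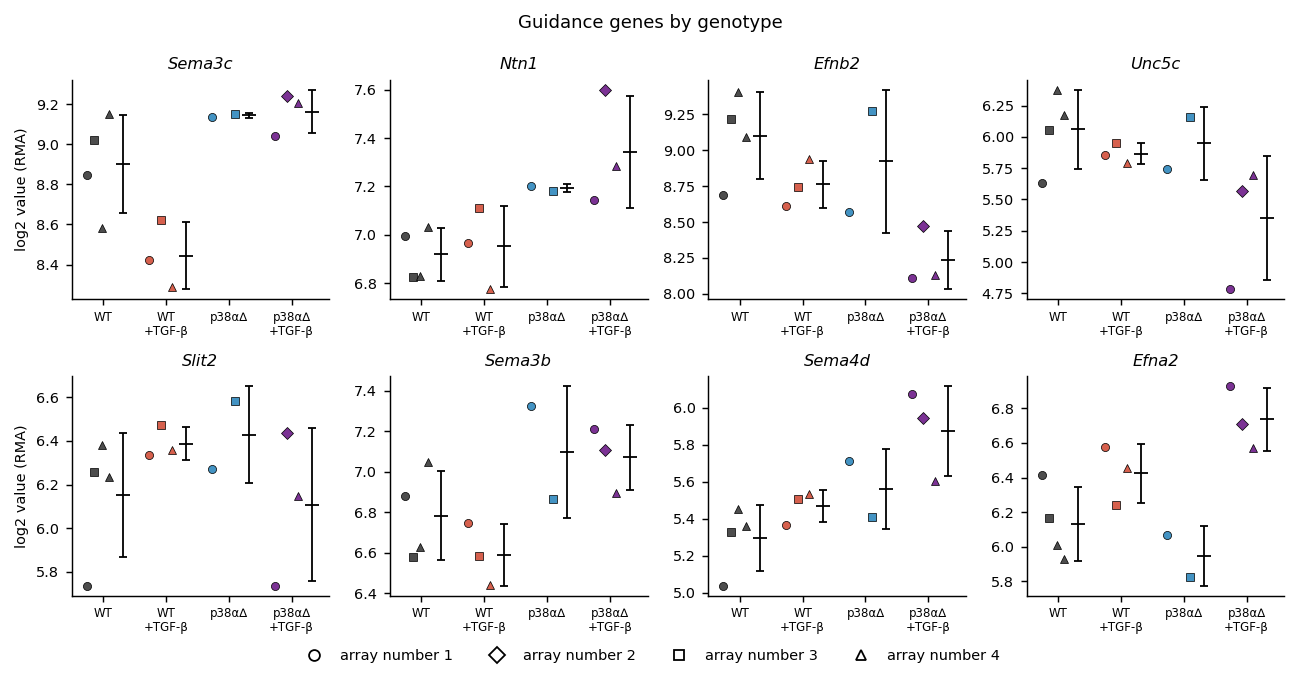
Log2 signal (vertical axis, RMA scale, a different range in each panel) of 8 guidance genes by genotype and treatment. Each point is an array, its color the group and its shape the array number (4b is drawn as 4), and bars give the mean ± SD of the group. For Sema3c the 3 treated WT arrays (8.29 to 8.62) lie below the 3 treated p38α∆ arrays (9.04 to 9.24), and for Unc5c and Slit2 array 1 is the lowest point in several groups.

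Without TGF-β no guidance gene passed between p38α∆ and WT MSCs, and neither did any of the 17097 genes (0% in limma, with 841 genes, 4.92%, at an unadjusted p under 0.05). Among the 63, 7 had an unadjusted p under 0.05 (Efna2, Efnb1, Epha2, Nrp2, Plxna3, Slit2 and Unc5b). Array ranges did not overlap for 10 (15.9%, against 6.52% of all genes), 9 higher in p38α∆ MSCs (3.52% of all genes) and 1 lower (3%). This comparison rests on 2 p38α∆ arrays. Ntn1, the secreted netrin, was, with Efnb1 and Nrp2, among 3 genes whose p38α∆ arrays lay above every WT array of the same treatment. This held both with and without TGF-β, as it did for 97 of all 17097 genes (0.567%). Ntn1 gave 6.99, 6.82, 6.83 and 7.03 in WT MSCs, 6.97, 7.11 and 6.77 in WT MSCs with TGF-β, 7.20 and 7.18 in p38α∆ MSCs, and 7.14, 7.60 and 7.28 in p38α∆ MSCs with TGF-β, a difference of 0.34 with TGF-β (SE 0.12, adjusted p = 0.336) and 0.25 without (SE 0.12, adjusted p = 0.982). For Efnb1 the differences were 0.19 (SE 0.08) and 0.25 (SE 0.09), and for Nrp2 0.19 (SE 0.11) and 0.32 (SE 0.12). Untreated Nrp2 cleared the WT arrays narrowly, with p38α∆ array 3 at 10.571 and WT array 4b at 10.563. None of these 6 differences passed.

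The difference between the genotypes in their response to TGF-β was tested directly, and no guidance gene and no other gene passed (0% in limma, with 920 genes, 5.38%, at an unadjusted p under 0.05). The genes called in a single genotype are thus not shown to respond differently. Among the 63, 6 had an unadjusted p under 0.05. The estimated response of Efna2 was greater in p38α∆ MSCs by 0.55 (SE 0.15, adjusted p = 0.72), that of Sema4f by 0.53 (SE 0.17, adjusted p = 0.849) and that of Sema3c by 0.52 (SE 0.20, adjusted p = 0.873). At the other probeset this difference was 0.09 for Efna2 (SE 0.21) and 0.38 for Sema3c (SE 0.36). For Slit2 the estimates in the 2 genotypes had opposite signs, and the difference of responses was −0.66 (SE 0.20, adjusted p = 0.791). The other two, Sema6d (−0.23) and Unc5d (−0.31), stayed below 4.5 on every array.

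Of the 63 genes, 37 had more than 1 probeset (123 probesets for the 63 genes). Where a gene that passed in WT MSCs had other probesets (9 genes, 14 probesets), all 14 had the same sign and 8 passed in a fit over all probesets. In p38α∆ MSCs (12 genes) 18 of 19 had the same sign and 13 passed. The exception was a dim Sema5a probeset (mean 3.11, difference 0.17). For Efnb2 the 3 other probesets fell with TGF-β in WT MSCs too, by −0.55, −0.63 and −0.67 (adjusted p = 0.00303, 0.00479 and 0.0108), so that its missed call in WT MSCs depended on the probeset. The missed call of Efna5 in WT MSCs did so too, as its other probeset passed (−0.41, adjusted p = 0.0326). In p38α∆ MSCs the other Unc5c probeset passed (mean 3.95, difference −0.41, adjusted p = 0.0438).

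**Figure D4:**
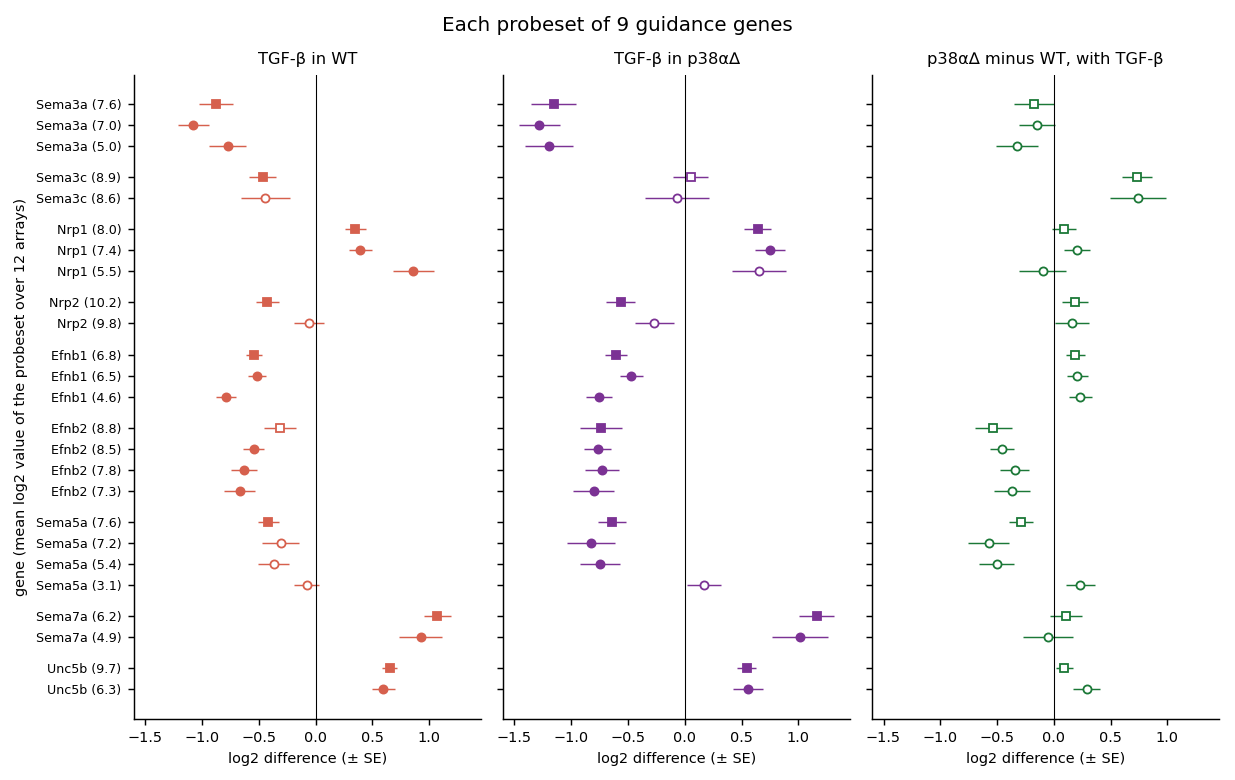
Log2 difference (horizontal axis, bars are SE) at every probeset of 9 guidance genes, with TGF-β in each genotype and between the genotypes with TGF-β. Squares are the probeset used for the gene, circles its other probesets, and filled symbols passed at an adjusted p under 0.05 over all probesets. All 4 Efnb2 probesets lie below 0 in all 3 comparisons, and the 3 not used for the gene passed in WT MSCs.

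Of 50 further genes of the guidance pathway outside the rule, 46 were measured. They include other receptors and cytoplasmic proteins that carry the signal to the cytoskeleton. In WT MSCs 3 rose (Tiam1, Mical2 and Limk2) and 6 fell (Fes, Mical1, Srgap3, Abl1, Gipc1 and Fyn), or 19.6% against 9.38% of all genes, and in p38α∆ MSCs 2 rose (Tiam1 and Mical2) and 2 fell (Fes and Srgap3), or 8.7% against 8.4%, a share near that of all genes. Tiam1, which activates the GTPase Rac, rose by 1.08 (adjusted p = 0.000142) and 1.40 (0.000197). Mical2, an oxidase that disassembles actin filaments, rose by 1.12 (9.32e-05) and 1.60 (6.1e-05). Fes, a tyrosine kinase that acts downstream of plexin A1, fell in WT MSCs (adjusted p = 8.5e-05) and, by −1.03, in p38α∆ MSCs (0.000576), and Srgap3, a Rac inhibitor of the Slit-Robo pathway, differed by −0.46 (0.00746) and −0.68 (0.00384). None of the 46 passed between the genotypes with TGF-β or without, nor in the difference of responses in limma (7, 0 and 1 at an unadjusted p under 0.05).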

How the data were processed

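Per the labels, RNA of each sample was amplified with a whole transcriptome kit and hybridised to 1 array. The authors normalized the 12 arrays by RMA, and the deposited values are log2 signals, 1 per probeset (45101), used here without further scaling. Of these probesets 28898 carried a single symbol in the platform annotation, 551 several and 15652 none, and only the first were used. Each of 17097 genes was read at the probeset with the highest mean. All 63 guidance symbols matched RefSeq by gene ID. The 4 groups were fitted together on all 12 arrays (limma 3.58.1, R 4.3.3, lmFit and eBayes, two-sided), with array number as a random block (duplicateCorrelation, statmod 1.5.0, 4b counted with 4), as the nearest stand-in for the scanning batch that the study's methods correct for, which no label states. P-values were adjusted by Benjamini-Hochberg over all genes in each of 5 comparisons.

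Same-numbered arrays were checked for shared deviations from their group means. The correlation was 0.64 to 0.85 in 6 pairs for number 1 and 0.68 to 0.78 in 3 pairs for number 3. It was 0.02 to 0.31 in 5 pairs for number 4, of which 3 were above 0.1. Some differently numbered arrays correlated as well, with 0.75 for treated p38α∆ array 2 and treated WT array 3. In the p38α∆ group, which has 2 arrays, the deviations mirror each other (correlation −1), so those of array 3 are fixed by array 1. For numbers 3 and 4 the numbers were thus not shown to pair the arrays. WT arrays 4 and 4b differed with an SD of 0.16, against 0.15 to 0.27 in 4 other pairs of a group without an array numbered 1. In pairs of a group with an array numbered 1 the SD was 0.28 to 0.46. Arrays 4 and 4b were kept as separate samples.

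Values in every array were given for genes past the threshold (for each comparison, the 12 with the largest difference) and for a fixed set of guidance genes with known vascular or stromal roles. Unc5c, Sema3b and Plxnc1 belonged to neither and were named with their values known. Genes near the bottom of the scale were given by their range. Other genes were given by class. The guidance genes, the lists and the tests were chosen with earlier results of these data known. Alternatives changed the block, the probeset, a filter on low signals, the scaling, the variance trend and the arrays used. Promoters were searched in Python 3 from RefSeq windows of GRCm38.p6.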

Additional observations from a re-analysis of the deposited data

Results flagged for a closer look

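Genes of the fixed set or past the threshold were checked in the WT group, the only one with 4 arrays. The check looked for an array far from the other 3. Of 28 genes, 2 had one, both times WT array 1, and chance alone flags about 1 in 20. For Ephb4 that array was at 7.89, with the others at 7.39 to 7.40. For Robo1 it was at 5.26, with the others at 6.11 to 6.28. The cause was not tested.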

How the results depend on the processing

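Of 29 calls for named genes, 11 passed under each of up to 23 settings run, 18 were lost under at least 1, and 0 reversed direction. Those that passed throughout were Efna4, Efnb1, Sema4f, Sema7a and Unc5b in WT MSCs, and Efna2, Efnb1, Sema3a, Sema4f, Sema7a and Unc5b in p38α∆ MSCs. Efna2 was read at the same probeset under each setting, and its other probeset (0.46 in p38α∆ MSCs) did not pass. With no replicate block, 5 guidance genes (602 of all genes) passed with TGF-β in WT MSCs, 9 (624) in p38α∆ MSCs and 0 (14) between the treated genotypes. With the replicate block as a fixed term the last were 0 (14), and with the arrays numbered 1 left out 0 (29). That count of guidance genes was also 0 with the probeset of highest median absolute deviation and with all probesets tested, and 2 (147) with only the groups compared in the fit. In settings chosen after seeing the data, number 1 against the others as a fixed term gave 143 genes between the treated genotypes and 1 gene in the difference of responses, and averaging WT arrays 4 and 4b moved no count by over 1.5 times. With all probesets tested, 1 passed in the difference of responses. Of the calls with TGF-β, the replicate block as a fixed term ended those of Efna5, Nrp2 and Plxna1 in p38α∆ MSCs. Leaving out the arrays numbered 1 ended those of Nrp1 and Sema3c in WT and of Efna4, Ephb4 and Nrp2 in p38α∆ MSCs. The probeset of highest median absolute deviation ended those of Sema3c and Sema5a in WT and of Nrp1 and Plxna1 in p38α∆ MSCs, and testing all probesets that of Efna5 in p38α∆ MSCs. Centring the arrays ended those of Ephb3 in WT and Ephb4 in p38α∆ MSCs, the variance trend that of Ephb3 in WT MSCs, only the groups compared that of Sema3c in WT MSCs, and averaging WT arrays 4 and 4b those of Ephb3 and Nrp1 in WT MSCs.

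On leaving out 1 array at a time, guidance genes passing ranged from 7 to 14 with TGF-β in WT MSCs, from 9 to 16 in p38α∆ MSCs, and from 0 to 1 between the treated genotypes, and were 0 in the other 2 comparisons. All genes passing ranged from 975 to 1840, from 698 to 1644, from 7 to 113, from 0 to 2 between untreated genotypes and from 0 to 1 for the difference of responses. The lowest came without array 1 of TGF-β-treated WT MSCs (975), p38α∆ array 1 (698) and treated p38α∆ array 4 (7). Fitting only the 2 p38α∆ groups was not run for TGF-β, because the block correlation could not be estimated. The cause of these shifts was not tested. Signals near the bottom of the scale limit what can be said of 17 guidance genes.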

Other observations

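The 17 guidance genes that stayed below 4.5 on every array were Efnb3, Epha5, Epha6, Epha7, Epha8, Ephb1, Ntn4, Plxna4, Robo2, Robo3, Robo4, Sema3d, Sema3e, Sema3g, Sema4a, Sema6d and Unc5d. No call was made for any of them.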
